A study of Mus musculus with 60 samples.

Results

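The Cyp2c monooxygenases described here are 7 mouse genes, Cyp2c29, Cyp2c38, Cyp2c54, Cyp2c55, Cyp2c65, Cyp2c66 and Cyp2c68, found in the count tables by their Ensembl identifiers among 31354 gene rows. Of the 7 members, 6 had a row in at least 1 table and 5 had a row in all 3 tables. Cyp2c54 had a row for the dome and suspension cultures only, and Cyp2c38 had no row in any of the 3 tables. The RNA came from liver organoids grown from bile duct fragments of male C57BL/6N mice aged 3-4 months, and no library came from freshly isolated tissue.

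The first experiment compared organoids in Matrigel domes (dome, n = 3) with organoids moved to a 10% Matrigel mixture on an orbital shaker (suspension, n = 3), 3 pools of mice each being split over both conditions. The second followed Sets 1, 3 and 4, each grown from 1 mouse, from passage 4 to passage 11 in bulk (n = 3 each), with the 2 technical replicates of each culture summed. The third held single organoids picked from suspension cultures, 35 of 42 being kept, with 8 from Set 1 at passage 11, 10 from Set 2 and 5 from Set 3 at passage 3, and 12 from Set 4 at passage 4. The labels name no transgene or deletion in any group. Set 1 was the only set taken at passage 11, so its mouse and its passage cannot be told apart. Organoids of a set share 1 mouse, and p-values between sets measure the spread between organoids, not between animals.

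Cytochromes P450 of the 2C subfamily are heme enzymes of the endoplasmic reticulum. They take electrons from NADPH through cytochrome P450 reductase (Por), in part with help from cytochrome b5, and use them to oxidise drugs, steroids and fatty acids. Several mouse members turn arachidonic acid into epoxides, which the epoxide hydrolases then open. In the liver, members of the subfamily are known targets of the receptors CAR (Nr1i3) and PXR (Nr1i2) and of the factor HNF4A. Cyp2c29 is known as a hepatic enzyme that is induced through CAR, Cyp2c55 as a colonic and inducible hepatic enzyme, and Cyp2c65 and Cyp2c66 as enzymes of the gastrointestinal tract.

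The members lie in 1 cluster on chromosome 19. In the GRCm38 annotation it holds 16 Cyp2c genes, of which 14 are protein coding, from position 38976647 to 40187333, a span of 1211 kb. Cyp2c55 (39007019 to 39042693), Cyp2c65 (39061015 to 39093944), Cyp2c66 (39113898 to 39187072) and Cyp2c29 (39269405 to 39330713) follow each other on the plus strand at one end. Cyp2c38 (39389556 to 39463075), Cyp2c68 (39688834 to 39741054) and Cyp2c54 (40037940 to 40073827) lie further along on the minus strand, among other Cyp2c genes.

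The 250 bases before the RefSeq start (GRCm38.p6) of the 5 members with a row in all tables are shown because these 5 genes moved together between dome and suspension. Capitals mark matches to TATAAA and to CAAAGTC or its longer form CAAAGTCCA, which are written as HNF4 motifs. Each sequence runs from 5′ to 3′ in the direction of the gene.
Cyp2c55, chr19:39006769-39007018, plus strand: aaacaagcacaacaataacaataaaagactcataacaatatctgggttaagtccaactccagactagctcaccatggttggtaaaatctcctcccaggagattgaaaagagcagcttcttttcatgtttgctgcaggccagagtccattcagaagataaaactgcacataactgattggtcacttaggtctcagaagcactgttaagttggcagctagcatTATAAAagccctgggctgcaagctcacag
Cyp2c65, chr19:39060756-39061005, plus strand: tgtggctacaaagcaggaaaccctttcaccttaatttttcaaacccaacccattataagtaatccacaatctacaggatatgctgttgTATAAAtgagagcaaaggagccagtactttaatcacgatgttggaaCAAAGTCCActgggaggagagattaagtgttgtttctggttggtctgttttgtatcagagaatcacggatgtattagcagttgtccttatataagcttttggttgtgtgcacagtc
Cyp2c66, chr19:39113648-39113897, plus strand: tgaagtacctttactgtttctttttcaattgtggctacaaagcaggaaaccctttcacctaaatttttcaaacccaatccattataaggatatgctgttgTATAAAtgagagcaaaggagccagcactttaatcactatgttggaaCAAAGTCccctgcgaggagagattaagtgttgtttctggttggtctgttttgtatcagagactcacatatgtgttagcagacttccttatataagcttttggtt
Cyp2c29, chr19:39286835-39287084, plus strand: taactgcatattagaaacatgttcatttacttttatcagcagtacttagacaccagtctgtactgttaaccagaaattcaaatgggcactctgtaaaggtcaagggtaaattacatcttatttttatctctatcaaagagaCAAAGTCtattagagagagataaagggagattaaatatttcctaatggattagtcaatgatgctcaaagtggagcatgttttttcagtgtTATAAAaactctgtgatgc
Cyp2c68, chr19:39741102-39741351, minus strand: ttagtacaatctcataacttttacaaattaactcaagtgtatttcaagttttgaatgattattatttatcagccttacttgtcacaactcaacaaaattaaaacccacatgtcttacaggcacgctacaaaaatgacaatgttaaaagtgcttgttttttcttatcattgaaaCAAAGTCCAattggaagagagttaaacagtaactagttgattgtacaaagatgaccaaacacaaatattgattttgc

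A match to CAAAGTC, searched on both strands, stood in the promoter of 4 of the 6 members that have an entry, 116 bases before the start in Cyp2c65, 104 in Cyp2c66, 109 in Cyp2c29 and 77 in Cyp2c68. Among 32851 mouse promoters of the same length, 3.84% held one. The match also stood in Cyp2c37, Cyp2c39, Cyp2c40, Cyp2c67, Cyp2c69 and Cyp2c70, which are not members, so it does not set the members apart within the family. The longer CAAAGTCCA, which contains it, was found in Cyp2c65 and Cyp2c68 and in 0.384% of all promoters. Among the non-members, Cyp2c40, Cyp2c67, Cyp2c69 and Cyp2c70 held the longer form too. A TATAAA stood in 5 of the 6, 29 bases before the start in Cyp2c55, 19 in Cyp2c29, 31 in Cyp2c38, 162 in Cyp2c65 and 150 in Cyp2c66, and in 12.4% of all promoters. None of the 6 held the HNF1 motif, the C/EBP motif TTGCGCAA, or a direct repeat of AGGTCA or of AGTTCA with 4 bases between, of the kind bound by CAR and PXR. These exact letters stood in only 0.0609%, 0.164%, 0.0152% and 0.00913% of all promoters. Their absence from 6 promoters of 250 bases therefore says nothing about the members. The promoters of Cyp2c65 and Cyp2c66 were the most alike of the 15 pairs, with 74.6% of aligned positions identical, followed by Cyp2c29 and Cyp2c38 with 68.8%, and the median over the pairs was 53.3%. These matches describe letters only and no binding was measured.

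Since the libraries count reads at transcript ends, how far the ends of the members differ sets how well their counts can be told apart. Of the 451 words of 50 bases in the last 500 bases of each transcript, none of Cyp2c29 or Cyp2c55 occurred in a transcript of another gene. Cyp2c65 shared 3.33% and Cyp2c66 21.5% of them, mostly with each other. Cyp2c68 shared 51.2%, with 47.7% being shared with Cyp2c40. Its last 500 bases were 98.6% identical to those of Cyp2c40 and 97.8% identical to those of Cyp2c67. Counts of Cyp2c68 are therefore uncertain as to the gene they came from, and the sources used here do not say how reads matching several genes were treated.

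**Figure D1:**
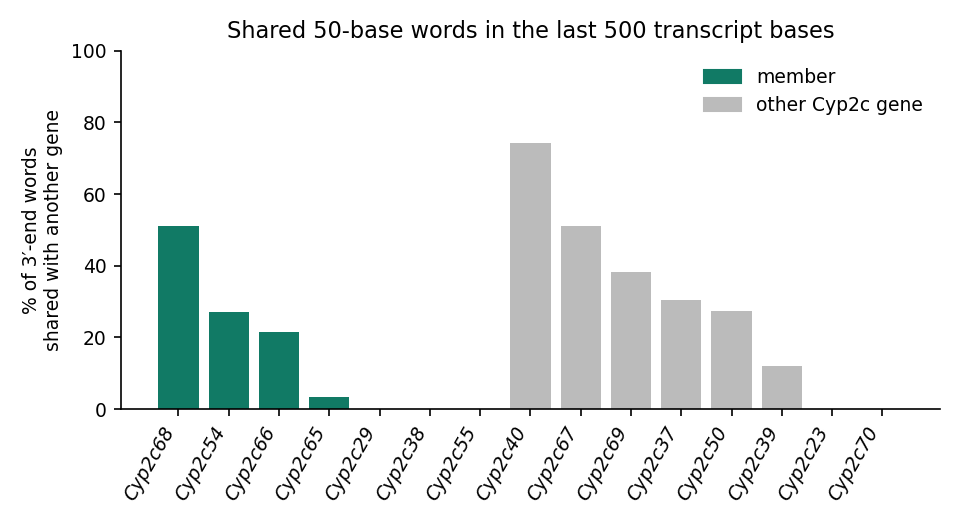
Share of 50-base words in the last 500 bases of the transcript that also occur in a transcript of another gene (y axis, percent), for each Cyp2c gene (x axis). Green bars are the 7 members and grey bars the other Cyp2c genes. Cyp2c68 stands at 51.2% and Cyp2c66 at 21.5%, whereas Cyp2c29, Cyp2c38 and Cyp2c55 stand at 0.

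The libraries differed in depth. Totals were 1776490 to 14761853 counts in the cultures, 1486347 to 5532630 in the summed bulk cultures and 1059002 to 11175868 in the kept organoids. Values are CPM, each count divided by the TMM-scaled library total and given per 1000000, separately for each experiment, so levels are not compared across experiments or between genes of unlike length. Ductal markers were present in every group. Of 7 ductal markers tested between dome and suspension, 2 were higher in dome, 1 was lower and 4 were not called, where 29.8% of all genes were called. Epcam and Sox9 were among the 4 not called (log2 fold-changes of -0.09 and -0.13, adjusted p = 0.774 and 0.702 with edgeR). The hepatocyte marker Alb stood at 0.21 to 4.96 CPM in the 6 cultures.

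The 5 members that could be tested were all higher in dome than in suspension cultures, and for each of them the lowest dome library was above the highest suspension library. Of 12699 genes tested in this comparison, 29.8% passed an adjusted p of 0.05 in either direction and 15% were higher in dome, while 21.6% had groups that did not overlap with dome higher. The fold-changes were largest for Cyp2c55, Cyp2c29 and Cyp2c66 and smallest for Cyp2c68. Cyp2c66 passed the filter on low counts (0.748 CPM in 3 libraries) through its dome libraries only, 0 of 3 suspension libraries reaching that level, so it could be tested only if it was high in dome. Its call is therefore no support for a difference. The other 4 members reached that level in all 6 libraries. In bulk RNA, more cells of a type and more RNA per cell cannot be told apart.

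Cyp2c29 was at 140 CPM, 18.3 CPM and 32.99 CPM in dome cultures 1, 2 and 3, and at 1.26 CPM, 1.18 CPM and 0.895 CPM in suspension cultures 1, 2 and 3. The suspension libraries were thus close to each other and the dome libraries were not. The log2 fold-change was 5.98 ± 0.78 (SE, adjusted p = 0.00137, edgeR quasi-likelihood test). Dome culture 1 was 4.23-fold above the next dome culture, and without it the log2 fold-change was 4.61 (adjusted p = 0.000193).

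Cyp2c55 was at 219 CPM in dome culture 1, 21.3 CPM in dome culture 2 and 11.5 CPM in dome culture 3, against 1.68 CPM, 1.18 CPM and 1.31 CPM in suspension. The highest and lowest dome cultures differed more among themselves than did those of any other member, with a coefficient of variation of 140%. The log2 fold-change of 6.00 ± 1.07 (SE, adjusted p = 0.00432, edgeR) went down to 3.53 without dome culture 1 (adjusted p = 0.000667). Pair by pair, dome was higher by 130-fold in culture 1, 17.98-fold in culture 2 and 8.82-fold in culture 3.

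Cyp2c66, the neighbour of Cyp2c65, was at 41.8 CPM, 8.06 CPM and 2.75 CPM in dome and at 0.421 CPM, 0.236 CPM and 0.482 CPM in suspension. The suspension values rest on 10 counts over the 3 libraries. Its log2 fold-change was 5.56 ± 0.93 (SE, adjusted p = 0.00343, edgeR), and 3.56 without dome culture 1 (adjusted p = 0.00585). As the gene passed the filter through dome only, these calls are no support for a difference.

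Cyp2c65 was at 99.6 CPM, 43.3 CPM and 51.7 CPM in dome and at 7.79 CPM, 4.97 CPM and 9.85 CPM in suspension. It differed least between dome cultures after Cyp2c68, the coefficients of variation being 46.9% and 42.9%. The log2 fold-change was 3.10 ± 0.36 (SE, adjusted p = 0.000957, edgeR).

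Cyp2c68 was at 26.5 CPM, 10.3 CPM and 20.9 CPM in dome, and at 5.47 CPM, 6.62 CPM and 7.09 CPM in suspension. The lowest dome value was 1.45-fold above the highest suspension value. The log2 fold-change was 1.65 ± 0.32 (SE, adjusted p = 0.00569, edgeR). Of its near copies, Cyp2c67 had 2 counts in dome culture 1, 1 in suspension culture 1 and 0 elsewhere. Cyp2c40 had a log2 fold-change of 1.22 ± 0.45 (SE, adjusted p = 0.0638, edgeR).

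Cyp2c54, an epoxide-forming enzyme of liver, had 6 counts in dome culture 1 (0.457 CPM) and 0 in the other 5 cultures, and did not pass the filter on low counts. At 3 counts per library, a count of 0 allowed up to 2.20 CPM and 1.65 CPM in dome cultures 2 and 3 and up to 0.631 CPM and 0.709 CPM in suspension cultures 1 and 2, so that a level like that of dome culture 1 was not detectable in these 4. In suspension culture 3 the limit was 0.207 CPM, below that level. Cyp2c37, whose transcript end shares words with that of Cyp2c54, had 75 counts in dome culture 1 (5.71 CPM) and 0 elsewhere. Dome culture 1 also had the highest value of each tested member and the largest total.

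**Figure D2:**
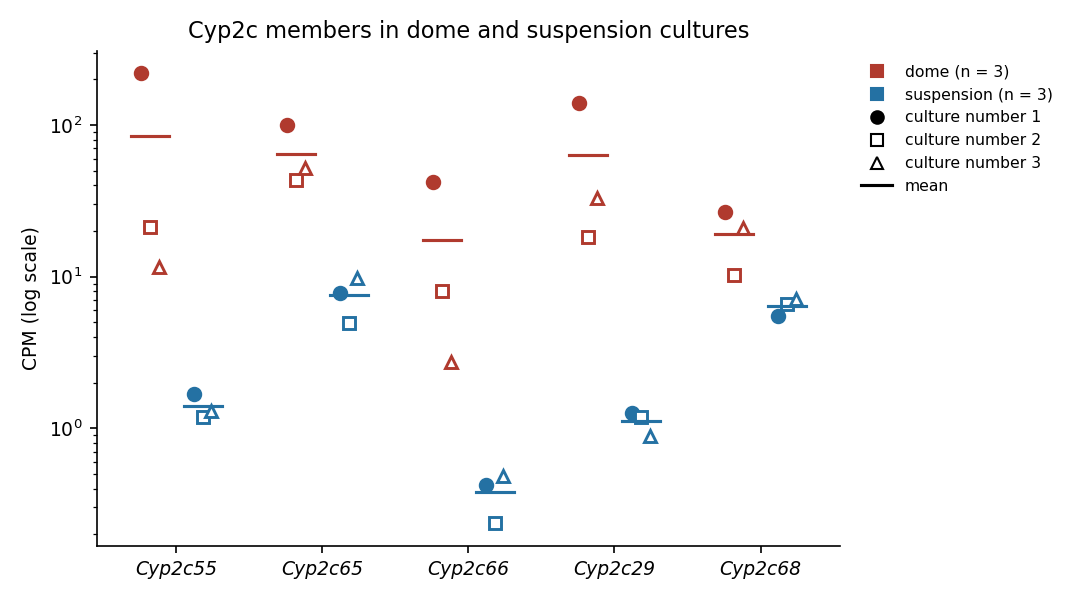
CPM on a log scale (y axis) of the 5 members tested (x axis) in 3 dome (red) and 3 suspension (blue) cultures, with symbols for the culture number and lines for the mean of each group. Every dome library lies above every suspension library for each gene, and dome culture 1 (filled circles) is the highest, from 26.5 CPM for Cyp2c68 to 219 CPM for Cyp2c55.

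Of 8 genes for electron transfer and heme, 3 were higher in dome and none lower (edgeR, adjusted p < 0.05). Of all genes tested, 29.8% were called in either direction and 15% were higher in dome, so with 8 genes this count says little about the list. Por rose by 1.92 ± 0.24 on the log2 scale (SE, adjusted p = 0.00125), from 25.3-29.2 CPM in suspension to 77.9-142 CPM in dome. The others were Cyb5r3, which reduces cytochrome b5, and Hmox1, which breaks heme down (log2 fold-changes of 0.68 and 3.58). Alas1, the first enzyme of heme synthesis, had a log2 fold-change of 0.91 (adjusted p = 0.0545).

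Of the 11 receptors and liver factors listed, 8 were tested and 4 were higher in dome, none being lower, where 15% of all genes were higher. Nr1i2, which encodes PXR, rose by 2.25 ± 0.47 on the log2 scale (SE, adjusted p = 0.0075, edgeR) and stood at 3.81, 7.33 and 3.85 CPM in dome and at 0.421, 1.18 and 1.10 CPM in suspension. Suspension culture 1, at 0.421 CPM, lay below the 0.748 CPM that the filter asked of 3 libraries. Nr1i2 therefore could not pass through suspension alone, and its call is limited support for a difference. Rxra, the partner of PXR, the bile acid receptor Nr1h4 and the vitamin D receptor Vdr were the other 3. Hnf4a, whose motif is capitalised in the promoters above, was at 72.9, 38.1 and 57.7 CPM in dome and 36.0, 35.9 and 48.8 CPM in suspension, and did not pass the test (log2 fold-change of 0.50 ± 0.25 (SE), adjusted p = 0.156, edgeR). The groups overlapped for it. Nr1i3 was looked for and had no row for the dome and suspension cultures.

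Of 16 known CAR and PXR targets outside the Cyp2c family, 7 were tested and all 7 were higher in dome, with a median log2 fold-change of 3.47 against -0.04 over all genes tested. Of all genes tested, 15% were higher in dome. Whether the 7 reached the filter level in suspension was not examined, so this median may lean towards genes that were high in dome. They included Cyp2b10 (4.10 ± 0.70, SE), Cyp3a13 (2.96 ± 0.28, SE), Gsta1 (3.66 ± 0.29, SE) and Abcb1a (3.47 ± 0.62, SE). Of 8 genes of arachidonate release and epoxide turnover, 7 were tested and 2 were higher. These were the epoxygenase Cyp2j6 (log2 fold-change of 1.74 ± 0.26 (SE), adjusted p = 0.00206, edgeR) and the soluble epoxide hydrolase Ephx2 (1.60 ± 0.22 (SE), adjusted p = 0.00164). The microsomal hydrolase Ephx1 had a log2 fold-change of -0.99 (adjusted p = 0.0881).

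Markers of gastrointestinal epithelium differed between the same groups. All 8 had a row, 4 were tested, and Cdx2, Lgals4, Tff2 and Vil1 were all higher in dome (log2 fold-changes of 2.70, 2.17, 4.24 and 1.20), where 15% of all genes were higher. Their summed level was 3924 to 5321 CPM in dome and 767 to 1381 CPM in suspension, of which Lgals4 made up most, and Gkn1 and Muc2 were at 0 in suspension and Lgr5 and Muc6 at 0 in dome. Hepatocyte markers summed to 268 to 784 CPM in dome and 221 to 590 CPM in suspension. Of these, 3 were tested and Apoa1 was higher (log2 fold-change of 4.94 ± 1.09 (SE), adjusted p = 0.00925, edgeR), at 159, 4.40 and 12.1 CPM in dome against 1.52 to 2.74 CPM in suspension. Macrophage markers summed to 6.62 to 91.6 CPM and 3.16 to 8.99 CPM, with Cd68 higher in dome and Adgre1 at 0 in suspension. Endothelium markers summed to at most 0.421 CPM and mesenchyme markers to at most 0.21 CPM in any culture. The part of these in the difference of the members was not tested.

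Genes beside the cluster moved in both directions or did not pass the test. Among the 5 nearest tested genes on each side, up to 752 kb away, 1 was higher in dome and 2 were lower. Of all genes tested, 29.8% were called in either direction, so this count says little about the neighbours. Hells, a chromatin remodeller that lies 5.6 kb before the cluster, fell by 3.40 on the log2 scale (SE 0.33, adjusted p = 0.000677, edgeR). Pdlim1, 33.8 kb behind it, was higher (1.31 ± 0.27, SE), and Tbc1d12, 56.7 kb before it, had a log2 fold-change of -0.06.

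With passage, Cyp2c29, Cyp2c55 and Cyp2c66 were higher at passage 11 than at passage 4 in Sets 1 and 3 and were at 0 in Set 4 at passage 11. None of these 3 passed the filter on low counts, which asks for 3 libraries. Of 13738 genes tested, 20.3% were called. The 2 members tested, Cyp2c65 and Cyp2c68, were not called by edgeR without a block for the set (1 of 2 at an unadjusted p < 0.05), and DESeq2 and limma-voom also called neither.

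Cyp2c29 was at 0.518 CPM in Set 1, 0.576 CPM in Set 3 and 0 in Set 4 at passage 4, and at 5.83 CPM, 29.2 CPM and 0 at passage 11. Set 1 rose 11.3-fold (exact 95% interval for counting error 2.82 to 97.8, from 2 and 26 counts) and Set 3 rose 50.8-fold (17.0 to 249, from 3 and 147 counts). Both technical replicates of Set 3 at passage 11 carried the gene, with 64 and 83 counts. Such intervals cover counting error only.

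Cyp2c55 had 1 count in each set at passage 4 (0.259, 0.192 and 0.176 CPM) and stood at 6.06 CPM, 16.3 CPM and 0 at passage 11 in Sets 1, 3 and 4. The ratio was 23.4 in Set 1 (exact 95% interval 3.85 to 957) and 84.9 in Set 3 (14.8 to 3396). Cyp2c66 had 1 count over the 3 sets at passage 4, in Set 3, and 5, 17 and 0 counts at passage 11 in Sets 1, 3 and 4 (1.12, 3.38 and 0 CPM). In Set 1 it was at least 1.44-fold higher at passage 11, the floor being 3 counts per library.

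Cyp2c65 was at 0, 2.30 and 0.704 CPM at passage 4 and at 4.26, 11.3 and 0 CPM at passage 11 in Sets 1, 3 and 4. It was at least 5.48-fold higher in Set 1 and 4.92-fold higher in Set 3 (exact 95% interval 2.61 to 10.1). The groups overlapped, and the log2 fold-change was 2.49 ± 0.88 (SE, adjusted p = 0.0722, edgeR). It was 1.39 without Set 3 at passage 11 (adjusted p = 0.394), 3.78 without Set 3 at passage 4 (adjusted p = 0.0641) and 1.30 with all libraries thinned to the smallest total (adjusted p = 0.410). The sets pair the passages by mouse, and with the set as replicate block the log2 fold-change was 2.31 ± 0.66 (SE, adjusted p = 0.0294, edgeR), so that 1 of the 2 members tested was called.

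Cyp2c68 was at 0.518, 7.68 and 4.75 CPM at passage 4 and at 1.35, 8.75 and 0 CPM at passage 11. The intervals of Sets 1 and 3 included no change. In Set 3 the ratio was 1.14 (exact 95% interval 0.726 to 1.79), in Set 1 it was 2.60 (0.464 to 26.3), and in Set 4 it was at least 2.49-fold lower at passage 11, from 27 counts to 0. The log2 fold-change over the sets was -0.13 ± 0.84 (SE, adjusted p = 0.935, edgeR).

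**Figure D3:**
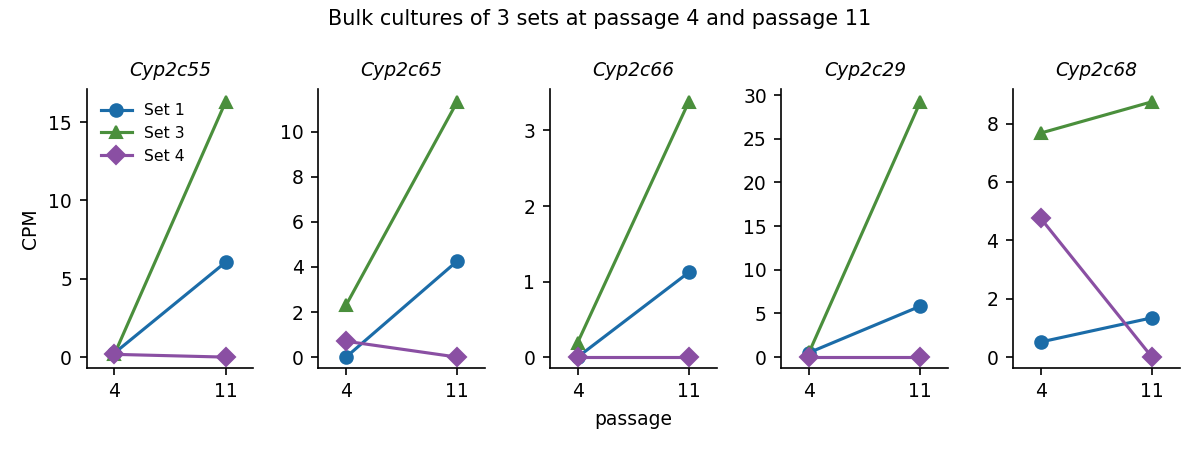
CPM (y axis, scaled for each gene) of 5 members in bulk cultures at passage 4 and passage 11 (x axis), 1 line for each set. Set 3 (triangles) reaches 29.2 CPM of Cyp2c29 and 16.3 CPM of Cyp2c55 at passage 11, Set 1 (circles) lies between at passage 11, and Set 4 (diamonds) is at 0 for all 5 genes at passage 11.

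Set 4 at passage 11 was also the shallowest bulk library, with 1486347 counts and a limit of 1.91 CPM for a count of 0. That limit lies below the levels that Sets 1 and 3 had for Cyp2c29, Cyp2c55 and Cyp2c65. The count of calls depended on this library. Leaving out each passage 11 culture in turn gave 0 of 2 members without Set 1, 0 of 2 without Set 3 and 4 of 5 without Set 4, and leaving out each passage 4 culture gave 2 of 5. With a culture left out, the filter asked for 2 libraries instead of 3. Cyp2c29, Cyp2c55 and Cyp2c66 then entered through the passage 11 cultures of Sets 1 and 3, where they were high, none of their passage 4 cultures reaching 0.614 CPM, so that their calls had to be in that direction and support nothing. For Cyp2c65 the log2 fold-change without Set 4 at passage 11 was 2.85 ± 0.70 (SE, adjusted p = 0.0240, edgeR), and without Set 1 at passage 11 it was 2.72 ± 0.98 (SE, adjusted p = 0.0917).

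Por, which rose in dome, did not pass the test with passage. It had a log2 fold-change of -0.04 ± 0.14 (SE, adjusted p = 0.861, edgeR) and was at 45.6 to 56.4 CPM in all 6 cultures, while Cyb5b and Cyb5r3 were higher at passage 11 (0.72 and 0.74). Of 9 receptors and liver factors tested, Ahr was lower (-1.61) and none was higher. Of 8 CAR and PXR targets tested, 2 were higher, Cyp2b10 (2.14 ± 0.55, SE) and Ces2a (4.00 ± 0.93, SE), and none of 7 epoxide genes was called (none at an unadjusted p < 0.05 apart from Pla2g4a, log2 fold-change of -1.20). Of all genes tested, 20.3% were called in either direction.

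Of 5 gastrointestinal markers tested, Cdx2, Lgals4 and Vil1 were higher at passage 11 (2.80, 1.95 and 0.82), and the 6 with a row summed to 3959 to 4563 CPM at passage 11 and 946 to 1305 CPM at passage 4. In Set 4, where the members were at 0 at passage 11, Cdx2 went from 7.74 to 35.0 CPM and Lgals4 from 1207 to 3790 CPM. Apoa1 was at 5.39, 85.7 and 1.27 CPM in Sets 1, 3 and 4 at passage 11 and at 2.07, 0.768 and 1.23 CPM at passage 4, so that it was also highest in Set 3. Alb was at 0.199 to 1.92 CPM throughout. The 5 hepatocyte markers with a row summed to 742 to 1095 CPM at passage 11 and 271 to 687 CPM at passage 4. Alb and Apoa1 made up little of these sums. Of 3 hepatocyte markers tested, 1 was called higher at passage 11, where 20.3% of all genes were called in either direction. The ductal markers summed to 5608 to 6219 CPM at passage 11 and 3297 to 6136 CPM at passage 4. The part of these in the values of the members was not tested.

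In single organoids, 2 members passed the filter, Cyp2c65 and Cyp2c68, and both had their highest median in Set 1. The filter asked for 1.17 CPM in 5 organoids. Cyp2c68 reached this in 8 of 8, 6 of 10, 5 of 5 and 5 of 12 organoids of Sets 1 to 4. Cyp2c65 reached it in 6 of 8 organoids of Set 1, 1 of 10 of Set 2, 1 of 5 of Set 3 and 0 of 12 of Set 4, so it passed through Set 1, where it is high, and its 3 calls below are no support for a difference. Against Sets 2, 3 and 4, 5 of 6 comparisons were called, all 5 being higher in Set 1. Of 13927 genes tested, 14.3% were called against Set 2 (7.08% higher in Set 1), 9.43% against Set 3 (4.3% higher) and 20% against Set 4 (12.4% higher). Between Sets 2, 3 and 4, none of 6 was called by edgeR (2 of 6 at an unadjusted p < 0.05), where 3.93% (Set 2 against Set 3), 12.4% (Set 2 against Set 4) and 11.6% (Set 3 against Set 4) of genes were.

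Cyp2c65 in Set 1 ran from 0.568 CPM over a median of 3.89 CPM to 13.8 CPM, with at least 1 count in all 8 organoids. Set 2 ran from 0 over 0.363 to 1.21 CPM, Set 4 from 0 over 0.395 to 1.11 CPM, and the 5 organoids of Set 3 were at 0, 0, 0.297, 0.353 and 2.11 CPM. The low end of Set 1 overlapped with each of the other sets. Its log2 fold-changes in Set 1 against Sets 2, 3 and 4 were 3.64 ± 0.56, 3.38 ± 0.71 and 3.58 ± 0.50 (SE, adjusted p = 1.28e-05, 0.000989 and 2.76e-06, edgeR). The levels of Sets 2, 3 and 4 did not differ beyond their spread, with log2 fold-changes between -0.26 and 0.20 and SE of 0.75 to 0.96.

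Cyp2c68 was the member seen in the most organoids, with at least 1 count in 33 of 35. Set 1 ran from 2.33 CPM over a median of 6.64 CPM to 21.1 CPM, Set 2 from 0 over 1.49 to 3.46 CPM, and Set 4 from 0 over 1.21 to 8.20 CPM, while Set 3 was at 2.38, 3.80, 4.21, 6.50 and 6.72 CPM. The order of the medians was Set 1, Set 3, Set 2 and Set 4, while the means put Set 4 (2.03 CPM) above Set 2 (1.52 CPM). Set 1 was above Set 2 by 2.91 ± 0.45 and above Set 4 by 2.37 ± 0.39 on the log2 scale (SE, adjusted p = 1.63e-05 and 4.66e-05, edgeR). Neighbours in that order did not pass the test. The log2 fold-change was 1.29 ± 0.49 for Set 1 against Set 3 (SE, adjusted p = 0.075, edgeR), -1.62 ± 0.56 for Set 2 against Set 3 (SE, adjusted p = 0.051) and -0.54 ± 0.50 for Set 2 against Set 4 (SE, adjusted p = 0.525), the last having the sign of the means.

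Cyp2c29, Cyp2c55 and Cyp2c66 were near the limit of detection in most organoids. Cyp2c55 had at least 1 count in 6 of 8 organoids of Set 1, 7 of 10 of Set 2, 0 of 5 of Set 3 and 5 of 12 of Set 4, and outside Set 1 no organoid had more than 3 counts. Cyp2c29 had at least 1 count in 3 of 8, 4 of 10, 0 of 5 and 1 of 12 organoids, and Cyp2c66 in 3 of 8, 0 of 10, 0 of 5 and 1 of 12.

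One organoid stood apart. Organoid 5 of Set 1 was at 9.37 CPM of Cyp2c29 (22 counts), where the other 7 organoids of the set were at 0 to 0.401 CPM, and at 18.7 CPM of Cyp2c55 (44 counts), where the others were at 0 to 3.81 CPM. It was also the highest for Cyp2c66, with 1.70 CPM from 4 counts against 0.252 CPM or less, and the second highest for Cyp2c65, with 9.37 CPM. For Cyp2c68, at 5.97 CPM, it lay within the range of the others. Its total of 2244106 counts was below those of 5 of the other 7.

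**Figure D4:**
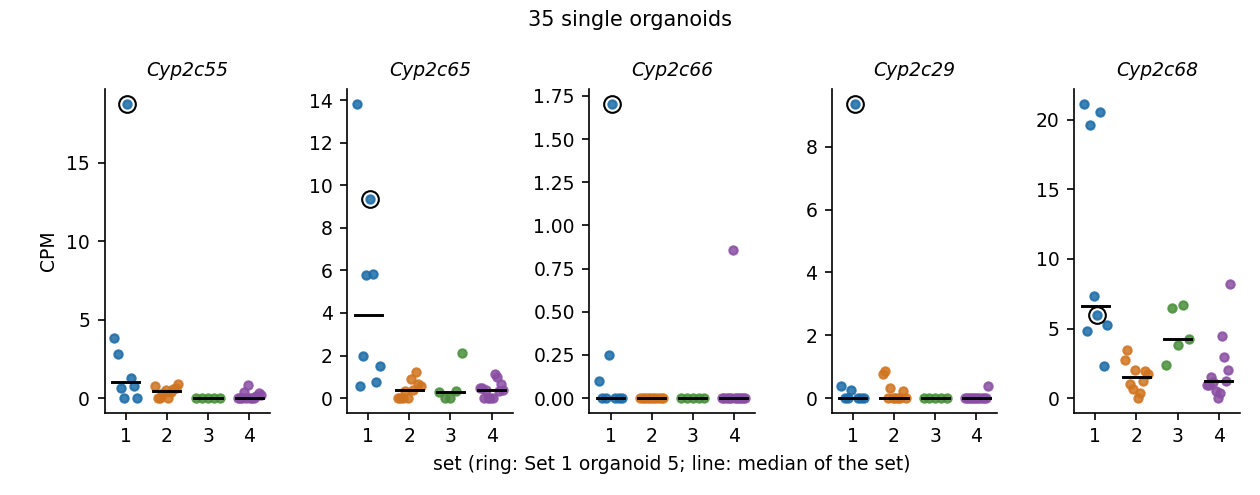
CPM (y axis, scaled for each gene) of 5 members in 35 single organoids by set (x axis), with a black line at the median of each set and a ring around organoid 5 of Set 1. The ringed organoid is the highest of the 35 for Cyp2c55 (18.7 CPM), Cyp2c29 (9.37 CPM) and Cyp2c66 (1.70 CPM from 4 counts, the next being 0.858 CPM from 1 count in Set 4) and lies near the median of its set for Cyp2c68 (5.97 CPM).

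Without that organoid, the number of called comparisons of Set 1 with the other sets was still 5 of 6. Of these, the 3 of Cyp2c65 support nothing, since that gene passed the filter through Set 1. Of the 7 CAR and PXR targets tested in single organoids, 4 had their highest value of Set 1 in organoid 5, where 16.8% of all 13927 genes tested did. They were Abcb1a (60.9 CPM against 1.42 to 12.7 CPM in the other 7), Ces2a (56.7 CPM against 1.321 to 17.8 CPM), Aldh1a1 (19.6 CPM against 3.11 to 9.80 CPM) and Sult1d1 (4.26 CPM against 0 to 2.27 CPM). Cyp3a13, Gstm1 and Gsta1 were not highest in organoid 5. Cyp3a13 (43.9 CPM) and Gstm1 (686.0 CPM) lay below the median of the other 7 (68.7 and 691.9 CPM). Gsta1 (199.4 CPM) lay above its median, with the others at up to 265.7 CPM. None of the 6 gastrointestinal markers tested and none of the 3 hepatocyte markers tested was highest there. Of 7 ductal markers, Sox9 (156 CPM against up to 108 CPM) and Cftr (3.41 against up to 3.28 CPM) were. Hnf4a and Rxra, of 9 receptors and factors tested, were highest there by a small margin (46.0 against up to 44.1 CPM, and 16.2 against up to 15.8 CPM).

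Between Cyp2c65 and Cyp2c68 across organoids, Pearson's r of log2 CPM was 0.59 in Set 1 (n = 8, exact permutation p = 0.123, adjusted 0.221, Spearman's rho 0.81 with p = 0.0218), -0.52 in Set 2 (n = 10, permutation p = 0.121, adjusted 0.221, rho -0.51 with p = 0.133) and 0.67 in Set 4 (n = 12, permutation p = 0.0165, adjusted 0.0742, rho 0.65 with p = 0.0251). Leaving out the 2 organoids farthest from the median of Cyp2c65 gave r of 0.39, -0.56 and 0.66. None passed adjustment over the 9 relations computed. Of the others, all between a member and the library total, Cyp2c68 rose with the total in Set 1 (r = 0.87, n = 8, exact permutation p = 0.00508, adjusted 0.0458, rho 0.93 with p = 0.00223, r = 0.77 without the 2 farthest). With libraries thinned to the smallest total, r was 0.82 and did not pass adjustment (exact permutation p = 0.0122, adjusted 0.110). In Sets 2 and 4, Cyp2c65 had at most 3 counts in any organoid. Neither gene reached the mean log2 CPM of 3 asked for before naming the genes most like it, the values being 0.46 and 1.70.

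Set 1 organoids also had higher levels of most CAR and PXR targets tested, with 6, 5 and 6 of 7 called higher than in Sets 2, 3 and 4 and none lower. Over all genes tested, 7.08%, 4.3% and 12.4% were higher in Set 1. Whether these targets passed the filter through Set 1 alone was not examined, so the counts are limited support for a difference. Cyp3a13 differed by 2.29 ± 0.27, 2.60 ± 0.35 and 2.35 ± 0.25 on the log2 scale (SE), and Abcb1a by 3.93, 4.27 and 4.10. Por, in contrast, had log2 fold-changes of 0.12, -0.20 and -0.07, with adjusted p from 0.477 to 0.770 (edgeR). Of 6 gastrointestinal markers tested, 4, 3 and 4 were called higher in Set 1, and the stem cell marker Lgr5 was lower than in Sets 2 and 4 (log2 fold-changes of -3.04 and -2.31). The summed level was 937 to 3243 CPM in Set 1, 372 to 866 CPM in Set 2, 350 to 465 CPM in Set 3 and 440 to 1329 CPM in Set 4. Of 3 hepatocyte markers tested, 1, 1 and 2 were called higher in Set 1 than in Sets 2, 3 and 4. The median of the summed level of the listed hepatocyte markers was 1183 CPM in Set 1, 812 CPM in Set 2, 485 CPM in Set 3 and 1428 CPM in Set 4. Ttr made up most of that sum in Set 1, where it stood at 509 to 2343 CPM in the organoids other than organoid 5. Of 7 ductal markers tested, 2, 1 and 0 were higher and 1, 2 and 0 lower in Set 1, with sums of 2890 to 4059 CPM in Set 1, 3138 to 7224 CPM in Set 2, 4315 to 5561 CPM in Set 3 and 3156 to 4619 CPM in Set 4. The part of passage, mouse and cell make-up in these differences cannot be told apart.

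**Figure D5:**
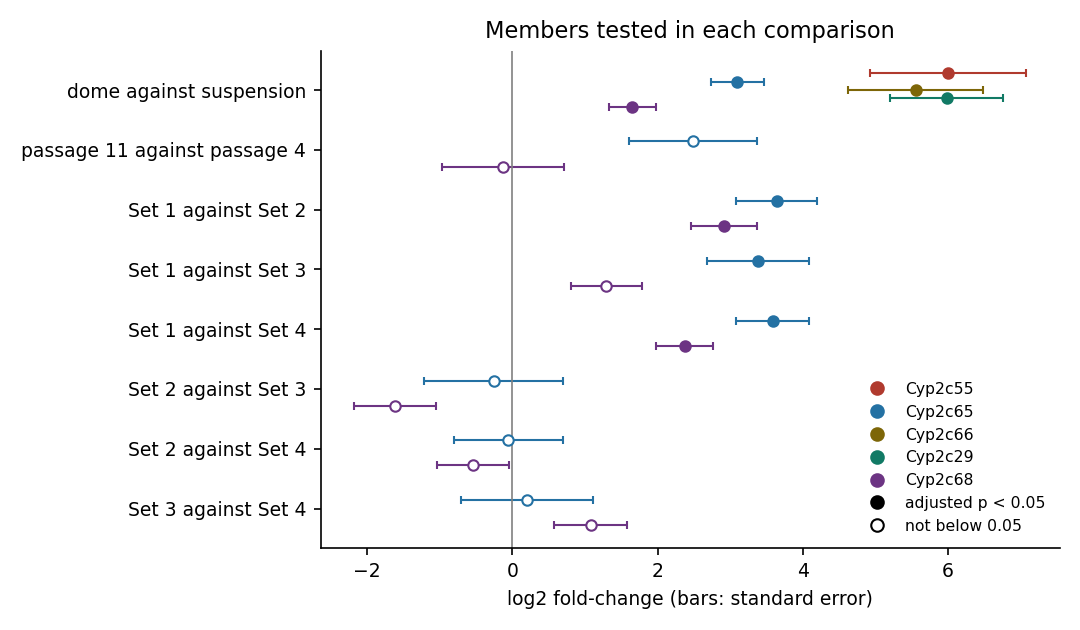
Log2 fold-change (x axis) with its standard error (bars) of each member tested in each of 8 comparisons (y axis), filled where the adjusted p was below 0.05. All 5 members lie to the right of 0 in dome against suspension, from 1.65 for Cyp2c68 to 6.00 for Cyp2c55, and the Set 1 comparisons lie between 1.29 and 3.64.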

How the data were processed

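RNA of mouse liver organoids was sequenced from transcript ends. The authors aligned reads to mm10 with zUMIs, STAR and featureCounts and deposited integer counts per Ensembl gene. Whether a count is a UMI or a read, and how far down-sampling within zUMIs went, is not clear from the sources used here. Per the labels, edgeR 3.28.1 and limma 3.42.2 were used under R 3.6.3.

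From these counts, genes were filtered (filterByExpr, minimum count 3), scaled by TMM and tested with edgeR 4.0.16 (quasi-likelihood test, R 4.3.3). Benjamini-Hochberg adjustment ran over all genes, for the 6 comparisons of sets together, with a threshold of 0.05. Groups came from the labels, and 7 of 42 organoids that the study left out were not tested. Technical replicates were summed. Alternatives used DESeq2 1.42.0, limma-voom 3.58.1, other filters and scaling, thinning, a replicate block and libraries left out in turn. On simulated counts, 78.9% of genes changed by 2 on the log2 scale were recovered between dome and suspension (12665 genes) and 8.49% of those changed by 1.

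Pairing was checked by correlating deviations from the group means. Dome and suspension cultures of the same number came from the same pool of mice (0.153, 0.165 and 0.191), and passages of a set from the same mouse (0.110, 0.0283 and 0.108). Organoid numbers pair nothing.

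Genes named are the members, other Cyp2c genes and those of short lists (electron transfer, receptors, epoxides), plus for each member above a mean log2 CPM of 3 the 3 genes most like it across organoids. The members and lists were chosen with earlier results of these data known, and examples from the longer lists (CAR and PXR targets, markers) after their values were seen. Where labels do not say that samples were separate cultures, p-values measure the spread between these samples, which may be technical. Promoters are from RefSeq (GRCm38.p6), and transcripts from GENCODE.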

Additional observations from a re-analysis of the deposited data

Results flagged for a closer look

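In organoid 5 of Set 1, 3 members lay far from the other 7 organoids of the set. Cyp2c29 was at 9.37 CPM where the next organoid was at 0.401 CPM, Cyp2c55 at 18.7 CPM where the next was at 3.81 CPM, and Cyp2c66 at 1.70 CPM, from 4 counts, where the next was at 0.252 CPM. In organoid 6 of Set 3, Cyp2c65 was at 2.11 CPM, from 4 counts, where the next of the 5 organoids was at 0.353 CPM. The 8 groups examined in this way were those with more than 3 counts in their highest library. The limits used mark about 1 in 20 groups by chance only where values are spread normally, which counts near 0 are not. Cyp2c66 in Set 1 and Cyp2c65 in Set 3 were examined only through the 4 counts of the organoid marked, so these 2 marks support nothing.

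Cyp2c68 was at 1.35 CPM in Set 1 and 8.75 CPM in Set 3 at passage 11, against 0.518 and 7.68 CPM at passage 4, with ratios of 2.60 (exact 95% counting interval 0.464 to 26.3) and 1.14 (0.726 to 1.79) that both include no change. In Set 4 it was at 0, against 4.75 CPM at passage 4, a fall beyond counting error. With 1 culture per set and passage, the difference was not tested.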

How the results depend on the processing

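The 5 members tested kept their call and direction between dome and suspension under all 13 alternatives, replicate block included, with log2 fold-changes of 4.61 to 6.41 for Cyp2c29 and 3.53 to 6.50 for Cyp2c55 (adjusted p at most 0.0117 and 0.0269). The calls of Cyp2c66 are no support, as it passed the filter through dome only. Without a filter, Cyp2c54 was also called (6 of 6, adjusted p = 0.0393), on 6 counts in 1 library. With passage, 0 of 2 members were called. There were 4 of 5 without a filter, 1 of 2 with the replicate block (pairing by set), 4 of 5 with the block and without both Set 4 cultures (chosen after seeing the data), 1 of 2 on technical replicate 2 alone, and 0 to 4 when a culture was left out, the 4 without Set 4 at passage 11. Where Cyp2c29, Cyp2c55 and Cyp2c66 were tested with cultures left out, they passed the filter through passage 11 only, so their calls support nothing. For Set 1 against the other sets, 5 of 6 became 10 of 15 without a filter, 2 of 3 at a minimum count of 10, where Cyp2c65 was no longer tested, and 5 to 6 with an organoid left out. The calls of Cyp2c65 among these support nothing, since it passed the filter through Set 1. Cyp2c68 kept its calls against Sets 2 and 4 under all 22 alternatives. Between Sets 2, 3 and 4, 0 of 6 became 1 of 15 without a filter, 1 with limma-voom, 1 with DESeq2, 2 with a block for organoid numbers, which pair nothing, and 0 to 1 with an organoid left out (1 without organoid 1 of Set 3, or without organoid 2, 6 or 7 of Set 1). The relation of Cyp2c65 and Cyp2c68 in Set 4 had r = 0.70 with a prior count of 0.5. Leaving out the Set 1 organoids was chosen after seeing the data. The number of all genes called between dome and suspension went from 3779 to 1893, 2209 and 1926 without suspension culture 1, 2 and 3. With passage, 2784 went to 1753 when thinned, 1717 on technical replicate 1, and 1632, 1552 and 1788 without Set 3 at passage 11, Set 3 at passage 4 and Set 4 at passage 4. Thinning gave 1160 of 1988, 762 of 1314, 1713 of 2780, 358 of 548, 1003 of 1722 and 943 of 1610 for the 6 set comparisons, from Set 1 against Set 2 to Set 3 against Set 4. The block gave 1584, 897 and 731 for the 3 comparisons with Set 4, all 42 organoids gave 252, 977 and 716 for the 3 among Sets 2, 3 and 4, adjustment within the comparison gave 180 for Set 2 against Set 3, and leaving out organoid 3, 4 or 6 of Set 3 gave 803, 1056 and 1024 for Set 3 against Set 4. The cause was not tested. Depth limits the rarer members, since 3 counts are 1.91 CPM in Set 4 at passage 11.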

Other observations

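The 7 organoids that the study left out, with 666660 to 1152914 counts each, carried few counts of the members. Cyp2c68 had 1 to 5 counts in each of them, from 1.05 CPM in organoid 10 of Set 4 to 6.26 CPM in organoid 2 of Set 3. Cyp2c65 had 3 counts in organoid 2 of Set 3 (3.75 CPM), 2 in each left-out organoid of Set 1 (1.87 and 2.32 CPM) and 1 in organoid 8 of Set 4 (1.246 CPM). Cyp2c29 had 1 count in organoid 2 of Set 3, Cyp2c55 had 1 in organoid 8 of Set 2, and Cyp2c66 had 0 in all 7.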
